A study of Mus musculus with 16 samples.

Results

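Transcripts of 36 aminoacyl-tRNA synthetase genes were examined in CD8+ T cells of the mouse after targeting of Tardbp, which encodes the RNA-binding protein TDP-43. The members were taken by gene symbol from 55536 annotated genes, 20 as cytosolic and 16 as mitochondrial, the latter carrying a symbol that ends in 2. All 36 passed the filter on low counts. The question asked of them was whether their levels, or the forms of their transcripts, differed between cells given a guide RNA against Tardbp and cells given a control guide.

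Both groups held CD8+ T cells from OT-I transgenic mice on the C57BL/6J background, whose receptor recognises the ovalbumin peptide SIINFEKL. The cells were electroporated with the Cas9 nuclease and either the control guide (Control gRNA, 8 libraries) or the Tardbp guide (Tardbp gRNA, 8 libraries) and moved into C57BL/6J recipients. Every recipient in both groups received the peptide together with agonist antibodies to OX40 and 4-1BB, so all 16 libraries are from antigen-stimulated and costimulated cells. Per the study's methods the donors were naive OT-I mice that lack Rag1 or Rag2, and transferred cells were sorted from the recipients by CD8 and the CD45 alleles of the donor. The study's results text also names a stimulation of the purified cells before sequencing, a step that its methods do not describe for RNA-seq. The labels place collection from spleen and lymph nodes at 4 days, the methods give a shorter time, and mouse ages are given for the study as a whole and not per library. The guide edits a pool of cells and not a clone, so a library can mix edited and unedited cells. A library was made from sorted cells in bulk, in which fewer cells of a type and less RNA per cell cannot be told apart.

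Aminoacyl-tRNA synthetases join each amino acid to its tRNA, the step that supplies the ribosome with charged tRNA. Cytosolic enzymes serve the main protein synthesis of the cell, while a separate nuclear-encoded set is imported into mitochondria and serves translation of the mitochondrial genome. Gars and Kars each encode both a cytosolic and a mitochondrial form, and several cytosolic enzymes assemble into the multi-tRNA synthetase complex. Activated T cells are known to raise protein synthesis strongly when they grow and divide.

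The libraries held 56016533 to 94801105 estimated counts in annotated genes. Tardbp itself ran from 172 to 207 CPM (counts scaled to a common library total adjusted by TMM) in Control libraries and from 110.4 to 147 CPM in Tardbp libraries, without overlap, at -0.51 on the log2 scale (SE 0.0558, edgeR adjusted p 8.07e-07). A transcript level that remains says nothing of the protein. By immunoblot of cells pooled from this model, the study reports that Tardbp protein was absent after the Tardbp guide. The deposited RNA concentration at library input, with no unit in its header, ran from 34.9 to 197.1 for Control libraries and 10.1 to 24.0 for Tardbp libraries, so that measure also separated the groups completely. A fit that carries it as a covariate is given with the counts below.

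All 20 cytosolic synthetase genes were lower in Tardbp gRNA, and 13 of the 16 mitochondrial ones were. No member was higher at the threshold, an adjusted p under 0.05 by edgeR's quasi-likelihood test over the 16650 genes tested. Over all genes tested, 23.3% were called lower and 23.5% higher by the same rule, or 46.7% in either direction. Median log2 fold changes were -0.48 for the cytosolic members, -0.38 for the mitochondrial members and 0.05 for all genes tested. At an adjusted p under 0.01, 19 cytosolic and 10 mitochondrial members were lower, beside 18.4% of genes tested. In 17 cytosolic and 6 mitochondrial members the groups did not overlap, all Tardbp libraries being lower, a pattern found in 10.3% of all genes tested. No member showed the opposite separation, found in 6.61% of genes.

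**Figure D1:**
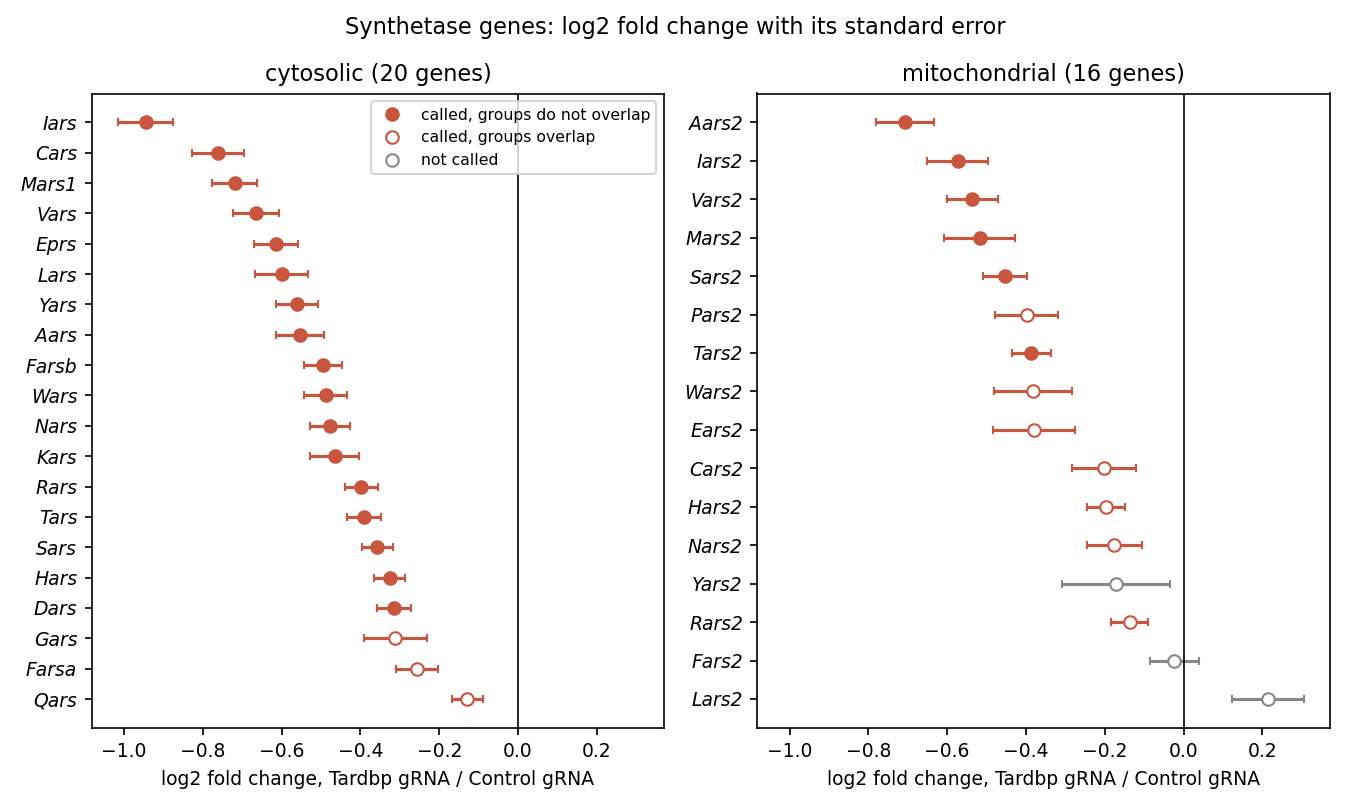
Log2 fold change of Tardbp gRNA over Control gRNA (x axis) with its standard error (bars) for each of the 20 cytosolic (left) and 16 mitochondrial (right) synthetase genes. Filled red points are called genes whose groups do not overlap, open red points are called genes whose groups overlap, and grey points did not pass the test. All cytosolic points lie between -0.94 and -0.13, and Lars2, at 0.21, is the one point above 0.

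Among cytosolic members the lowest value belonged to Iars, the isoleucine enzyme and a member of the complex (chromosome 13, 49682100 to 49734267, plus strand; positions here and below are in GRCm38). Iars ran from 205 to 261 CPM in Control gRNA, with a median of 228, and from 100.5 to 144 CPM in Tardbp gRNA, with a median of 120.2. The Tardbp mean was 51.9% of the Control mean, which is -0.94 on the log2 scale (SE 0.0705, edgeR adjusted p 3.25e-08). The highest Tardbp library stayed well under the lowest Control library. A processed pseudogene, Gm4849, matched 1656 bases of the main Iars transcript at 96.0% identity, but held a mean of only 0.545 CPM.

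Cars, which charges cysteine tRNA (chromosome 7, 143557230 to 143600090, minus strand), ran from 96.2 to 116 CPM (median 104) in Control libraries and from 52.6 to 70.0 (median 61.8) in Tardbp libraries. Mars1, the methionine enzyme that also serves initiation (chromosome 10, 127296221 to 127311786, minus strand), ran from 232 to 289 CPM (median 246) and from 133 to 170.4 (median 156). For both genes the groups stood clearly apart, with log2 fold changes of -0.76 (SE 0.0658, edgeR adjusted p 9.55e-08) for Cars and -0.72 (SE 0.0568, edgeR adjusted p 4.47e-08) for Mars1. Mars1 is listed as Mars in the annotation used, and its 3' end overlaps that of Ddit3 on the other strand. The library kit does not mark strand, so reads from the shared stretch cannot be told apart.

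Vars, the valine enzyme (chromosome 17, 35000987 to 35016322, plus strand), was among the most abundant members. It ran from 586 to 696 CPM (median 668) in Control libraries and from 344 to 475 (median 429) in Tardbp libraries, that is, -0.67 on the log2 scale (SE 0.0582, edgeR adjusted p 1.06e-07). Eprs, a single protein with glutamate and proline activities that sits in the complex (chromosome 1, 185363044 to 185428360, plus strand), ran from 311 to 387 CPM (median 347) and from 203 to 253 (median 223). Its log2 fold change was -0.61 (SE 0.0560, edgeR adjusted p 1.47e-07). Neither gene had a Tardbp library inside the Control range.

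The smallest changes among members without overlap were in the same direction and far smaller than that of Iars. Dars, the aspartate enzyme (chromosome 1, 128363707 to 128417368, minus strand), ran from 296 to 358 CPM (median 322) in Control libraries and from 247 to 284 (median 259.9) in Tardbp libraries. Hars, the histidine enzyme, ran from 219 to 257 CPM (median 230.2) and from 178 to 197 (median 185). These are changes of -0.32 (SE 0.0429) and -0.33 (SE 0.0399) on the log2 scale, with edgeR adjusted p of 8.96e-06 and 2.85e-06. Sars, the serine enzyme, ran from 287 to 329 CPM (median 304) and from 218 to 258 (median 242), at a log2 fold change of -0.36. Tars, the threonine enzyme, ran from 197 to 238 CPM (median 222) and from 160.1 to 185 (median 165), at -0.39. Its mitochondrial counterpart Tars2 gave nearly the same change, also -0.39, from 103 to 117 CPM (median 105) down to 75.0 to 93.8 (median 81.0). Rars, the arginine enzyme, ran from 211 to 249 CPM (median 227) and from 160.1 to 183 (median 176), at -0.40. In each of these genes the highest Tardbp library stayed below the lowest Control library.

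**Figure D2:**
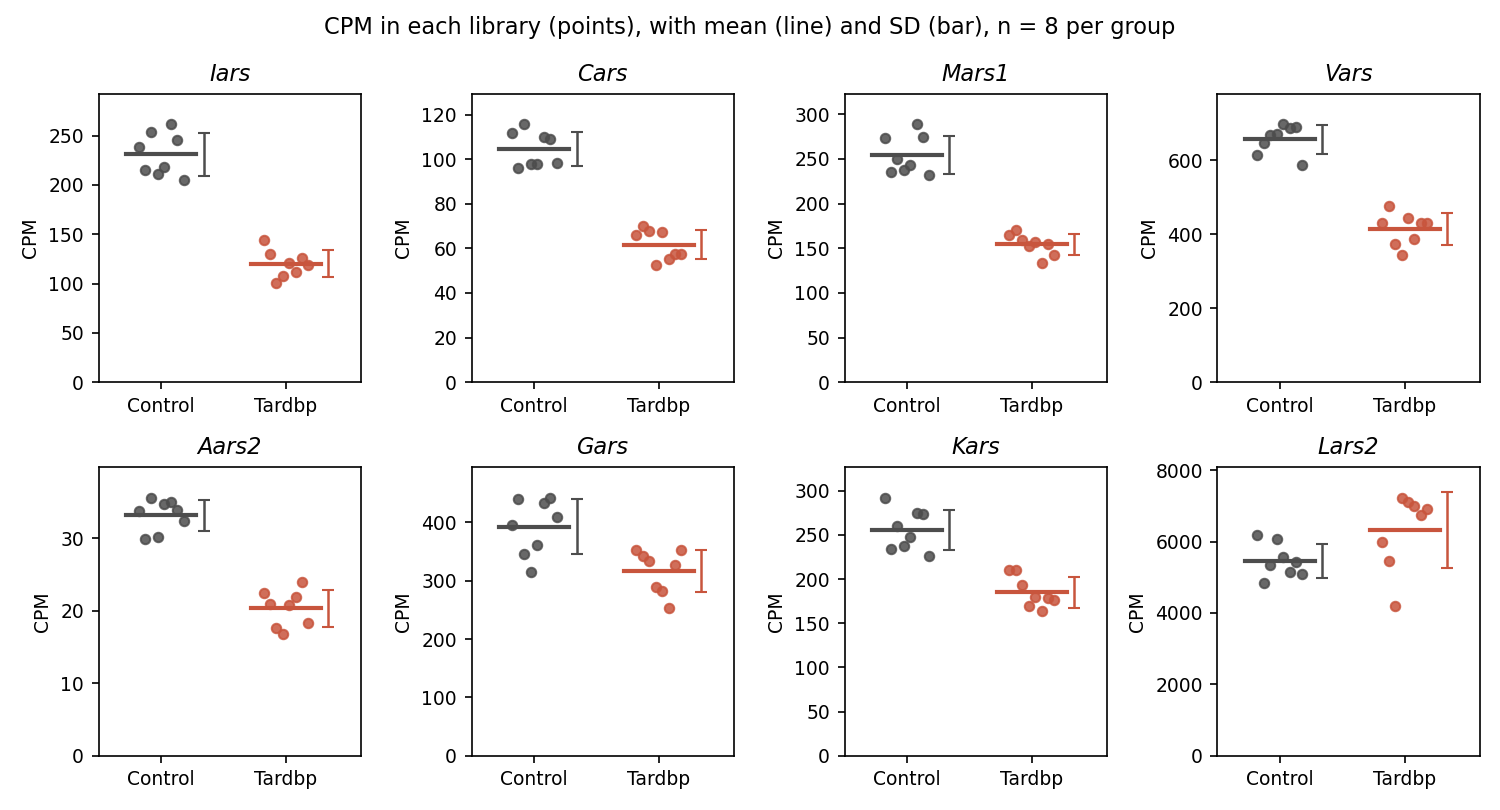
CPM of 8 members in each library (points; dark, Control gRNA; red, Tardbp gRNA), with the group mean (line) and SD (bar beside it), n = 8 per group; each axis starts at 0. Points of the groups do not overlap for Iars, Cars, Mars1, Vars, Aars2 and Kars, overlap for Gars, and for Lars2 include Tardbp libraries both above and below the Control range.

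Gars and Kars, which supply both compartments from one gene, were both lower, with different spread. Kars, the lysine enzyme (chromosome 8, 111993443 to 112011323, minus strand), ran from 226 to 292 CPM (median 254) in Control libraries and from 164 to 210.3 (median 179) in Tardbp libraries, with no overlap, at -0.47 on the log2 scale (SE 0.0627, edgeR adjusted p 8.12e-06). Gars, the glycine enzyme (chromosome 6, 55038007 to 55079500, plus strand), ran from 315 to 442 CPM (median 402) and from 254 to 352 (median 330.2). For Gars 3 of 8 Tardbp libraries lay below the lowest Control library, and the log2 fold change was -0.31 (SE 0.0804, edgeR adjusted p 0.00374). Its coefficient of variation was 12.2% in Control gRNA, against a median of 7.22% over the cytosolic members.

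The other cytosolic members followed between these extremes. Lars (leucine) changed by -0.60, Yars (tyrosine) by -0.56, Aars (alanine) by -0.55, Farsb (the beta chain for phenylalanine) by -0.49, Wars (tryptophan) by -0.49 and Nars (asparagine) by -0.48 on the log2 scale, all without overlap. Farsa, the alpha chain that pairs with Farsb, changed by -0.26 with 7 of 8 Tardbp libraries below the Control range. Qars, the glutamine enzyme, had the smallest cytosolic change, -0.13 (SE 0.0395, edgeR adjusted p 0.0123), with 4 of 8 Tardbp libraries below the Control range. All 8 synthetases of the multi-tRNA synthetase complex (Dars, Eprs, Iars, Kars, Lars, Mars1, Qars and Rars) were lower, with a median of -0.53, beside a median of -0.48 for the 12 cytosolic members outside it. By catalytic class, the 10 cytosolic genes of class I had a median of -0.61 and the 10 of class II a median of -0.37. Eprs, with its glutamate and proline activities, was counted in class I alone. Differences between these groups of members were not tested.

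Expressed per transcript length as TPM (length-scaled counts brought to a common total, rebuilt from the deposited transcript counts and annotated lengths), the most abundant cytosolic member was Gars at 272 ± 35.0 TPM in Control gRNA and 210.0 ± 26.9 TPM in Tardbp gRNA (SD, n = 8 per group). Vars followed at 269 ± 20.7 and 164 ± 18.8 TPM (SD, n = 8 per group), so their order in Control gRNA is not separated beyond the spread. The least abundant was Lars at 55.2 ± 5.45 and 35.8 ± 4.41 TPM (SD, n = 8 per group), from 110.0 to 146 CPM (median 131) in Control libraries and from 70.4 to 102 CPM (median 87.3) in Tardbp libraries. Summed over the 20 cytosolic genes, levels ran from 2792 to 3302 TPM in Control libraries and from 1925 to 2320 TPM in Tardbp libraries. The Tardbp mean was 69.6% of the Control mean on that scale, and the groups did not overlap.

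**Figure D3:**
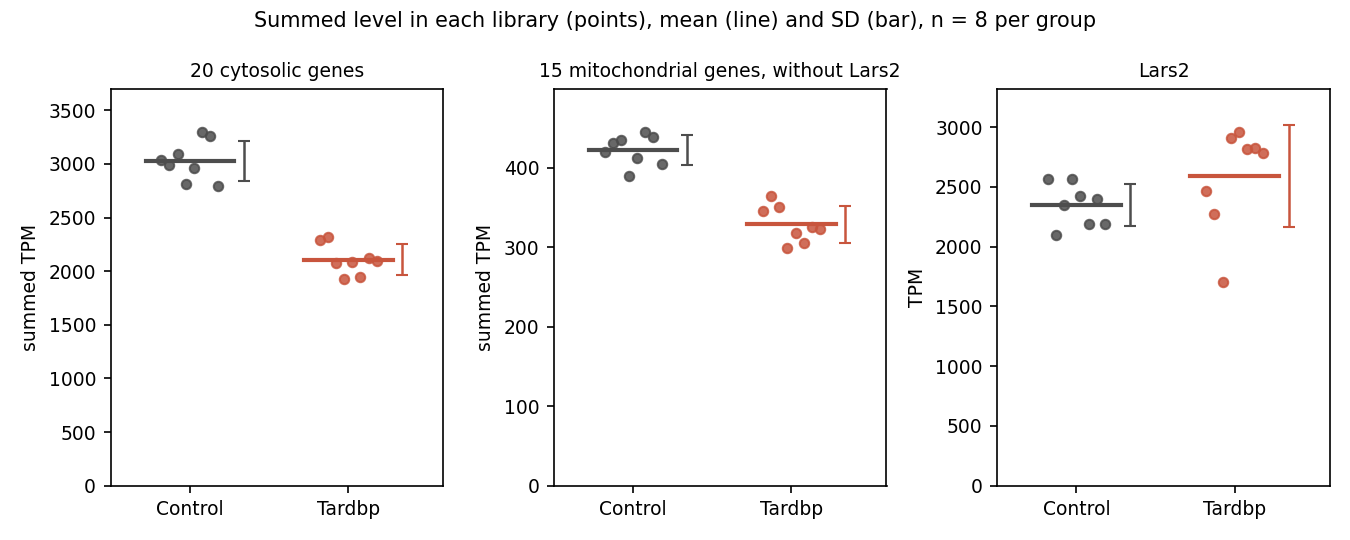
TPM in each library (points; dark, Control gRNA; red, Tardbp gRNA), with group mean (line) and SD (bar beside it), n = 8 per group: summed over the 20 cytosolic genes (left), summed over 15 mitochondrial genes without Lars2 (middle) and Lars2 alone (right); axes start at 0. Both sums separate the groups, whereas Lars2 ranges from 1704 to 2964 TPM in Tardbp gRNA, around the Control range of 2094 to 2565 TPM.

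Mitochondrial members, apart from Lars2, were mostly less abundant, and without it their changes ran from -0.71 to -0.02 on the log2 scale. The lowest log2 fold change belonged to Aars2, the mitochondrial alanine enzyme (chromosome 17, 45506841 to 45520843, plus strand), which ran from 29.9 to 35.5 CPM (median 33.8) in Control libraries and from 16.7 to 24.0 (median 20.8) in Tardbp libraries. The change was -0.71 (SE 0.0734, edgeR adjusted p 4.97e-07), beside -0.55 for cytosolic Aars. Iars2 changed by -0.57, Vars2 by -0.54, Mars2 by -0.52, Sars2 by -0.45 and Tars2 by -0.39 on the log2 scale, and in these also no Tardbp library reached the Control range. Mars2, the least abundant member at 2.86 ± 0.364 TPM in Control gRNA and 1.91 ± 0.257 TPM in Tardbp gRNA (SD, n = 8 per group), ran from 16.7 to 22.8 CPM (median 18.6) and from 10.96 to 16.1 CPM (median 14.4), with an SE of 0.0902 and an edgeR adjusted p of 0.000123.

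A further 7 mitochondrial genes were called lower with overlapping groups. Pars2 changed by -0.40 with 7 of 8 Tardbp libraries below the Control range, Wars2 by -0.38 with 7 and Ears2 by -0.38 with 6. Smaller still were Cars2 and Hars2, both at -0.20, Nars2 at -0.18 and Rars2 at -0.14. The calls of Cars2 (edgeR adjusted p 0.0463) and Nars2 (0.0456) stood close to the threshold: of the 16 fits that left out a library in turn, 9 lost the call of Cars2 and 4 that of Nars2. Yars2 ran from 19.8 to 35.0 CPM in Control libraries and from 18.6 to 32.8 in Tardbp libraries, at -0.17 on the log2 scale (SE 0.137, edgeR adjusted p 0.324) and the widest spread of the members in Control gRNA, a coefficient of variation of 21.3%. Fars2 ran from 25.6 to 34.7 CPM and from 25.2 to 30.7 CPM, at -0.02 (SE 0.0617, edgeR adjusted p 0.780). Reads of Hars and Hars2 that fall where these genes overlap head to head, and those of Farsb, Wars, Yars, Cars2, Ears2, Fars2 and Iars2 where a coding gene lies across them on the other strand, may be divided wrongly by an unstranded count, and Aars overlaps Exosc6 on its own strand.

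Lars2, the mitochondrial leucine enzyme (chromosome 9, 123366927 to 123462666, plus strand), stood apart from all other members. With 7515200 counts over the 16 libraries it held 53.9% of all member counts and ranked 3 by mean CPM among all genes tested. It ran from 4835 to 6184 CPM (median 5379) in Control libraries and from 4199 to 7222 CPM (median 6824) in Tardbp libraries. Tardbp libraries 4 to 8, between 6744 and 7222 CPM, lay above the whole Control range, libraries 1 and 2 within it, and library 3, at 4199 CPM, below it. The Lars2 log2 fold change was 0.21 (SE 0.0912) and did not pass the test (edgeR adjusted p 0.0632). It passed at 0.28 (adjusted p 0.00167) without Tardbp library 3 and at 0.24 (adjusted p 0.0433) without Tardbp library 2.

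Lars2 shares short stretches of sequence with other genes. Within the last 989 bases of its main transcript, all after the coding sequence, stretches of 97 and 50 bases matched the transcript of AA474408 at 94.8% and 96.0% identity, and a stretch of 72 bases matched that of Gm15564 at 98.6%. Gm15564 was listed with 50225 and 55481 counts in 2 libraries and with at most 8 in the other 14, a mean of 77.2 CPM, and AA474408 had a mean of 2.098 CPM. The deposited counts of the gene also changed hands between the main coding form and a form annotated for nonsense-mediated decay, the share of the coding form being as low as 0.127 in a Control library and 0.00969 in a Tardbp library and nearly the whole in others. Their part in the level of Lars2 was not tested. Because Lars2 held on average 84.7% of the summed TPM of mitochondrial members in Control gRNA, that sum followed it and reached 106% of the Control mean. Without Lars2, the 15 remaining genes summed to between 389.9 and 446 TPM in Control libraries and between 299 and 365 TPM in Tardbp libraries, or 77.9% of the Control mean, again without overlap.

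**Figure D4:**
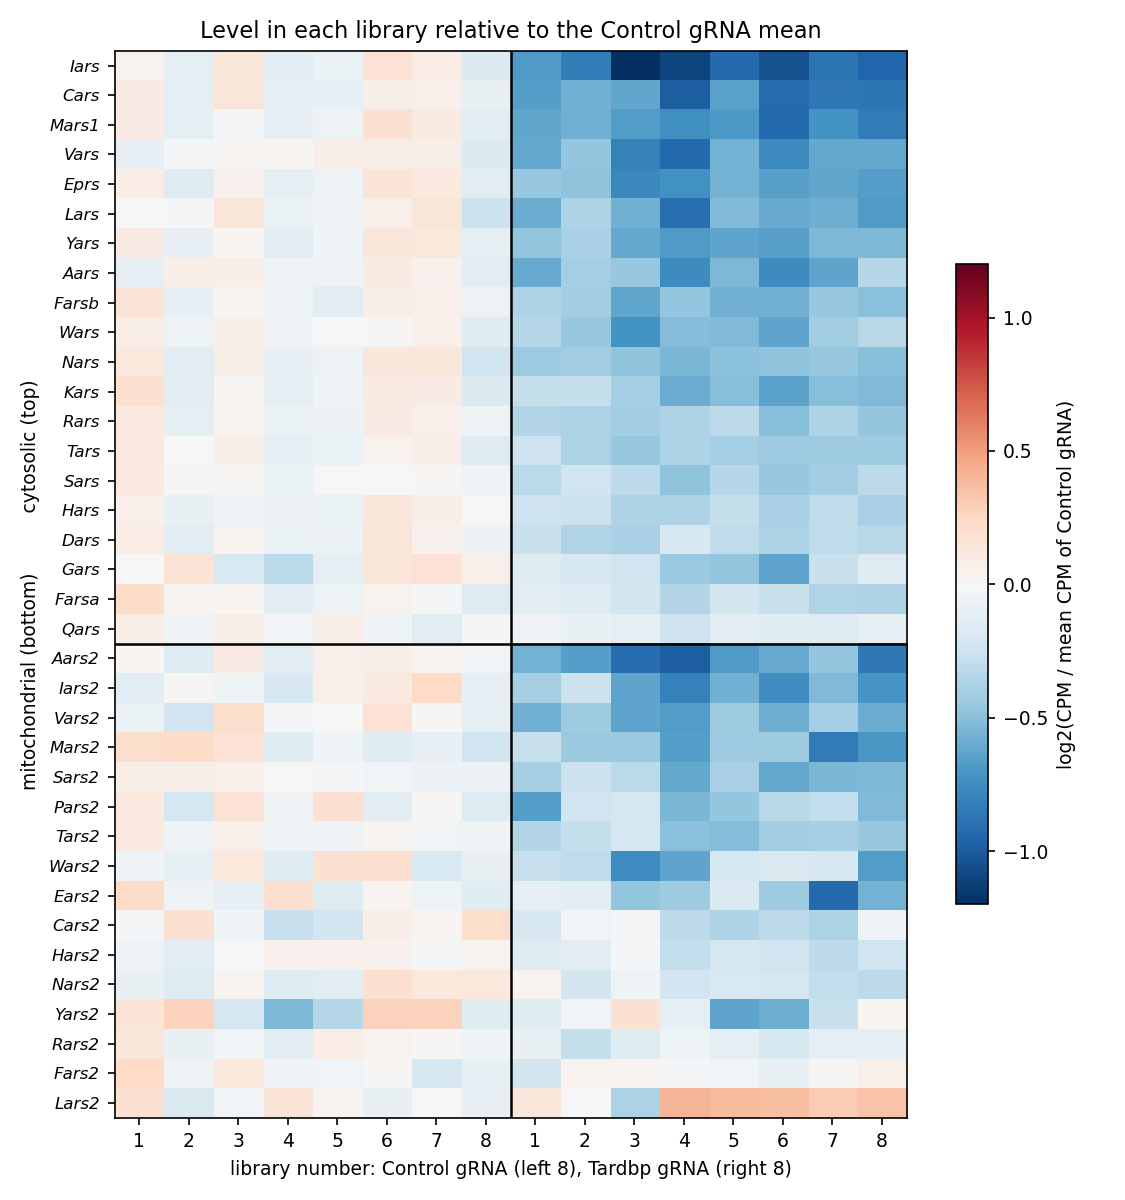
Heat map of the 36 members (rows; cytosolic above, mitochondrial below the horizontal line, each ordered by log2 fold change) in the 16 libraries (columns; Control gRNA left, Tardbp gRNA right of the vertical line); colour gives log2 of a library's CPM over the Control mean, blue lower and red higher. Blue fills the Tardbp columns of nearly all cytosolic rows, and the last row, Lars2, is red in Tardbp libraries 4 to 8 and blue in library 3.

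The cytosolic members were lower in every Tardbp library taken singly. Between 17 and 20 of the 20 cytosolic members fell below the lowest Control library in each Tardbp library, and 20 of 20 did in libraries 4, 5 and 6. For the 16 mitochondrial members that number was between 10 and 13. Over all genes tested, 10.3% had every Tardbp library below the lowest Control library. The share of all genes that did so in a single library was not computed. The median log2 ratio of the cytosolic members to the Control mean ran from -0.62 in Tardbp library 6 to -0.36 in library 1. The Control libraries themselves ran from -0.13 to 0.10 on this measure, so each Tardbp library was outside their span. Library numbers 1 to 3 lay apart from numbers 4 to 8 within both groups on a principal component of the genes tested, and no label names a batch there. Within numbers 4 to 8 alone, 20 of 20 cytosolic and 11 of 16 mitochondrial members were called lower (21.1% of genes tested), with Lars2 higher at 0.35. Numbers 1 to 3 alone gave 16 and 5 (6.76% of genes), with 3 libraries per group.

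Other settings bear on how firmly these counts can be read. When log2 RNA concentration entered as a covariate, 15 cytosolic and 5 mitochondrial members were called lower, where 10.1% of all genes were, and the cytosolic calls lost were Dars, Farsa, Gars, Kars and Qars. With library totals in place of TMM, calls over all genes split into 4881 higher and 3135 lower, against 3906 and 3877 under TMM, and 19 cytosolic and 10 mitochondrial members were lower with Lars2 higher.

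Cytosolic and mitochondrial genes for the same amino acid were set side by side for 16 amino acids in 17 pairs, since phenylalanine has 2 cytosolic chains and Eprs serves 2 amino acids. Both genes were called lower in 13 pairs, and no pair was called in opposite directions. These counts follow from the calls above, 20 of 20 cytosolic and 13 of 16 mitochondrial members lower and none higher. Over all genes tested, 23.3% were called lower. The cytosolic gene had the lower log2 fold change in 15 pairs, with Aars and Aars2 and Sars and Sars2 as the exceptions. The gap was widest for leucine, -0.60 for Lars against 0.21 for Lars2, followed by cysteine, -0.76 for Cars against -0.20 for Cars2. For threonine the values lay within 0.01 of each other. In TPM the cytosolic gene was the more abundant in 16 of 17 pairs in Control gRNA, at a median ratio of 5.45, leucine being the exception. Differences in change between genes of a pair were not tested.

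**Figure D5:**
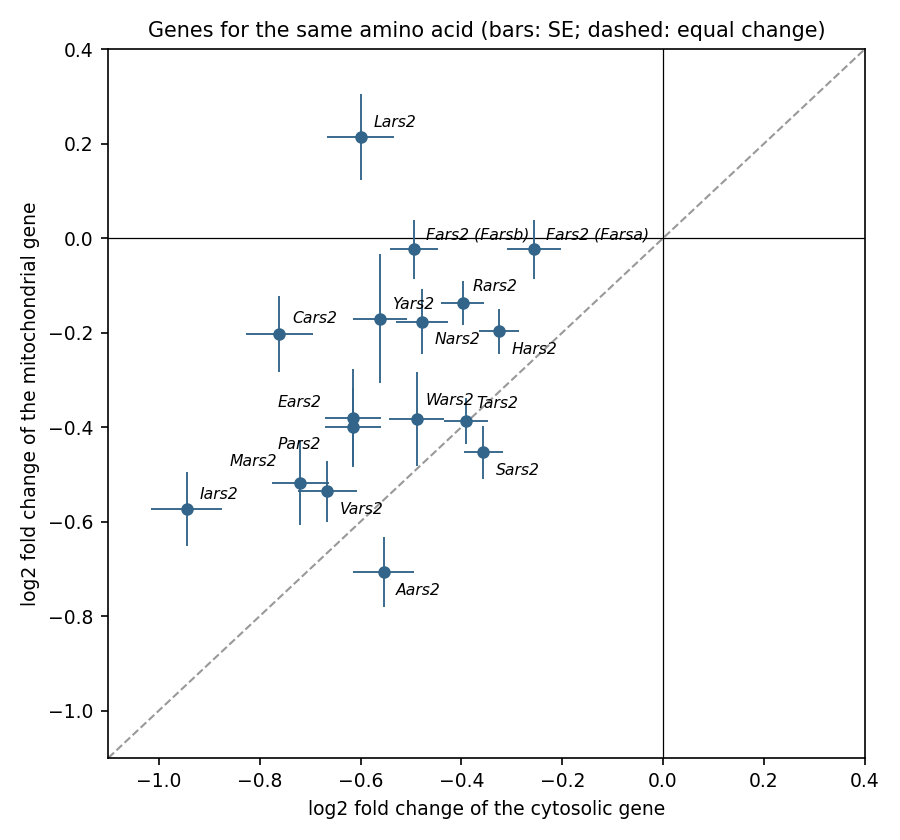
Log2 fold change of the cytosolic gene (x axis) against that of the mitochondrial gene for the same amino acid (y axis) for 17 pairs, each labelled by the mitochondrial gene; bars are standard errors and the dashed line marks equal change. Of the pairs, 15 lie above the dashed line, where the cytosolic gene fell further, and Aars2 and Sars2 lie below it.

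Single transcripts and their shares were examined next. Of 292 annotated transcripts of the members 138 passed the filter, and 29 were called lower and 2 higher, beside 8.14% and 8.5% of all 40897 transcripts tested. The 2 called higher, Hars2-205 and Lars-208, were rare forms with medians under 1 CPM in both groups. Shares of a gene's counts were tested with limma for 133 transcripts of 31 members, and 0 were called at an adjusted p under 0.05 with a difference over 0.1, beside 0.63% of all shares tested. At an unadjusted p under 0.05 there were 24, of which 4 had a difference over 0.1 (17.2% of all shares had such a p). With an adjusted p under 0.05 alone there were 3, beside 4.45% of all shares. For Kars, whose forms Kars-201 and Kars-202 differ in their annotated start codon, the median share of Kars-201 was 0.594 in Control gRNA and 0.630 in Tardbp gRNA, and that of Kars-202 was 0.396 and 0.345, with wide overlap. Wars-201 held a median share of 0.974 and 0.971. Gars had 1 form that passed the filter, Gars-201, at a log2 fold change of -0.36 (edgeR adjusted p 0.0124).

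Inclusion values (Psi, the fraction of transcripts that include a node, given by the authors as 1 value per group with depth unknown here) covered 595 nodes in 35 members. The column names give no group, and the order, Control gRNA first, was taken from a heading in the study's supplement. With that order, 63 of 89 core exons of all genes with a Psi difference over 0.2 and annotated forms with and without the exon moved the same way as the exon's share of transcript TPM, and 27 of 33 where that share differed by over 0.1. A difference over 0.1 in size between groups was found in 6 of the 595 member nodes (1.01%), beside 4.7% of all 125520 nodes. No test was possible on 1 value per group. The widest were start nodes of Wars2: the node at chromosome 3, 99141068 to 99141095, went from 0.785 (Control gRNA) to 0.287 (Tardbp gRNA), and the node next to it, 99141096 to 99141188, from 0.213 to 0.715. End nodes of Pars2 on chromosome 4 went from 0.519 to 0.711 (106653118 to 106655280) and from 0.481 to 0.289 (106655281 to 106655282). The second of these nodes adds only the last bases of the gene, so the annotated ends nearly coincide. The transcript shares of Pars2 ran the other way: the form that ends with the first of these nodes had a mean share of 0.320 in Control libraries and 0.169 in Tardbp libraries (adjusted p 0.237 by limma), and the form that ends with the other had 0.643 and 0.795 (adjusted p 0.265 by limma). Start nodes of Dars went from 0.523 to 0.413 and from 0.478 to 0.588. Nodes in the other 32 members with values differed by 0.1 or less. The median size of a difference was 0.00131 over member nodes and 0.00545 over all nodes.

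Promoters were read for motifs as a description, and the part of the motifs in the levels of the members was not tested. Promoter sequences, 250 bases before to 50 after the start, were present for 27 members (13 cytosolic, 14 mitochondrial) in the RefSeq table for GRCm38.p6. Among cytosolic members, Cars, Hars, Lars, Nars, Rars, Vars and Wars had none there. The searched letters were TGATGNAA, an element known for ATF4, and CACGTG, the E-box known for Myc, both on either strand. TGATGNAA was found in the promoters of 5 of the 13 cytosolic members (38.5%), Aars, Gars, Iars, Tars and Yars, in 0 of the 14 mitochondrial ones, and in 3.97% of all 32851 promoters or 4.51% of the 27025 genes they belong to. CACGTG was found for 4 cytosolic members (30.8%), Aars, Farsb, Iars and Tars, for 1 mitochondrial member (7.14%), Ears2, and in 7.15% of all promoters or 8.09% of genes. Sites are shown since Aars, Iars and Tars carry both motifs, which share no base in any member. Each line gives the strand of the gene from 5' to 3' with the motif in capitals (TGATGNAA stands on the other strand in all but Yars):
Aars, TGATGNAA, chr8:111033840-111033869, plus strand: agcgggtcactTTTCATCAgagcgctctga
Aars, CACGTG, chr8:111033684-111033713, plus strand: agtcaaccctgtCACGTGacactccatgtc
Gars, TGATGNAA, chr6:55037960-55037989, plus strand: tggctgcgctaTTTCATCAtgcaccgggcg
Iars, TGATGNAA, chr13:49682126-49682155, plus strand: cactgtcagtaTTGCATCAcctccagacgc
Iars, CACGTG, chr13:49682049-49682078, plus strand: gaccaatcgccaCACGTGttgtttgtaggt
Tars, TGATGNAA, chr15:11399655-11399684, minus strand: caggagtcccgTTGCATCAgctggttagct
Tars, CACGTG, chr15:11399622-11399651, minus strand: tccgcctgtggcCACGTGgcgcacgcgcag
Yars, TGATGNAA, chr4:129189895-129189924, plus strand: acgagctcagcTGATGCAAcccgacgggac
Farsb, CACGTG, chr1:78488919-78488948, minus strand: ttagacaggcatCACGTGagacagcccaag
Ears2, CACGTG, chr7:122067048-122067077, minus strand: cgcgaaggagccCACGTGtgtgtttctagt

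Members with the TGATGNAA letters ranged from -0.94 for Iars to -0.31 for Gars, and binding was not measured here. The transcript of Atf4 itself ran from 118 to 130.1 CPM in Control gRNA and from 108 to 130.3 CPM among Tardbp libraries, at a log2 difference of -0.09 (SE 0.0446, edgeR adjusted p 0.114). Of 21 genes tested in a list of the ATF4 pathway, 11 were lower and 2 higher, with a median of -0.43. The lowest of those called were Pycr1 at -1.05, a proline synthesis enzyme, Asns at -0.88, which makes asparagine, Eif2ak4 at -0.83, the kinase GCN2 that senses uncharged tRNA, and Slc7a5 at -0.74, a carrier of large neutral amino acids. Pycr1 was rare, at a Control median of 1.92 CPM (SE of the change 0.307). The groups overlapped for Pycr1, Asns and Slc7a5 but not for Eif2ak4. Chac1, rare at a Control median of 0.230 CPM, was at -1.65 and did not pass the test (adjusted p 0.0927). Higher were Ddit3 at 0.64, which shares its 3' end region with Mars1, and Ppp1r15a at 0.37. Myc ran from 94.5 to 129.7 CPM in Control libraries and from 77.6 to 99.95 CPM in Tardbp libraries, at -0.33 (SE 0.0655, edgeR adjusted p 0.000411). Of the 7 genes listed as Myc and partners, 2 were lower and 2 higher, with a median of 0.02, beside 23.3% and 23.5% of all genes tested. The others called were Max, lower at -0.95, and Mxd4 (1.54) and Mxd1 (0.47), which compete for Max, higher. Mxd3 at 0.04, Mlx at 0.02 and Mnt at -0.15 did not pass the test.

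Partners of the synthetases in protein synthesis were read list by list. Over all genes tested, 23.3% were called lower and 23.5% higher, while 10.3% were lower and 6.61% higher without overlap. Among the 3 scaffold genes of the complex, Aimp2 was lower at -0.35, while Eef1e1 at -0.15 and Aimp1 at 0.01 did not pass the test. Among related genes outside the member list, Tarsl2 at -0.76 and Sepsecs at -0.28 were lower, and Pstk at 0.46 was higher and without overlap. Pstk and Sepsecs act one after the other in making selenocysteine tRNA. Of 4 genes for mitochondrial amidation and formylation, Gatb at -0.48, Gatc at -0.15 and Qrsl1 at -0.14 were lower and Mtfmt at 0.05 was not called. Of 13 genes for tRNA processing and editing, 7 were lower, led by the tRNA export receptor Xpot at -0.83, Elac2 at -0.45, Prorp at -0.44 and Dtd1 at -0.40, and 2 were higher, Prorsd1 at 0.33 and Hsd17b10 at 0.32. All 4 mitochondrial elongation factors were lower and without overlap, Gfm1 at -0.53, Tsfm at -0.47, Gfm2 at -0.37 and Tufm at -0.26. Of 6 cytosolic elongation genes 4 were lower, by no more than 0.25 (Eef1g), and Eef1a1 at -0.01 was not called.

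Other measures moved with the same division of libraries. Counts of called genes below stand beside 23.3% lower and 23.5% higher over all genes tested. Of 16 proliferation genes 14 were lower, led by Bub1 at -0.87 and Mcm5 at -0.76, and their summed level ran from 9942 to 11049 CPM in Control libraries and from 6484 to 8079 CPM in Tardbp libraries. Of 9 CD8 T cell markers 8 were higher, among them Cd8a at 0.62 and Cd3g at 0.75, while Gzmb at -0.46 did not pass the test. The sum of these 9 markers ran from 4132 to 5003 and from 5433 to 6659 CPM. Red cell markers summed to between 0.442 and 17.4 CPM in Control libraries and between 9.02 and 181 CPM in Tardbp libraries, with 4 of 4 tested genes higher. Myeloid markers summed to 16.7 to 39.7 and 21.6 to 86.9 CPM, with 3 of 7 higher, while Itgam at -0.57 did not pass the test. B cell markers summed to 470.3 to 727 and 633 to 874 CPM, with 1 of 6 tested genes, Ighm, higher. NK cell markers summed to 12.6 to 63.4 and 36.9 to 100.8 CPM, with Eomes higher of 3. Most of the NK sum was Eomes, at medians of 15.6 CPM in Control libraries and 49.6 CPM in Tardbp libraries. Ncr1 (medians 0.541 and 1.43 CPM) and Klrb1c (0.688 and 1.21 CPM) did not pass the test. Whether the rise of Eomes came from NK cells was not tested. The 2 CD4 T cell markers summed to 3.08 to 12.5 and 4.28 to 8.67 CPM, with 0 called. No marker of these lists was at 0 in all libraries, although Pax5, a defining B cell gene, had a median of 0 in both groups and was at 0 in all Tardbp libraries. The part of these measures in the levels of the synthetases was not tested.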

How the data were processed

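RNA of 16 libraries was sequenced after SMART-Seq v4 and Nextera XT preparation. Per the submitters' processing notes the tools included HISAT2 2.1.0, SAMtools 1.9 and StringTie 2.1.0 with build mm10. The authors deposited estimated counts per gene and per transcript, all whole numbers, which equal each other when summed by gene. The authors also deposited read pair counts and RNA concentrations per library, and Whippet Psi values, the fraction of transcripts including a node, as 1 value per group. Lines of the gene table that name no annotated gene (26345 lines, 0.0836 to 0.132% of counts) were left out, as were 10 count columns of samples outside these groups and the authors' own columns of comparisons.

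From these values, genes were filtered (minimum count 10, minimum total 15, proportion 0.7), scaled by TMM and tested with edgeR 4.0.16 (quasi-likelihood, Benjamini-Hochberg over all genes tested) in R 4.3.3. Transcripts were tested likewise, and transcript shares with limma 3.58.1, a share being called at an adjusted p under 0.05 with a difference over 0.1. TPM used GENCODE M21 lengths (GRCm38). Sequence matches came from blastn 2.17.0+ and promoters from RefSeq. The code was tested on simulated data. Each library came from an individual recipient, and p-values measure the spread between these libraries. In the methods, donor cells were divided by group and then electroporated. Recipients of a group may therefore share an electroporated pool, and spread between such pools is not measured. Depth was 56016533 to 94801105 annotated counts.

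The members and gene lists were chosen with earlier results of these data known. The genes chosen by rule for CPM ranges in each group were the 6 lowest and the 6 highest log2 fold changes among members called without overlap. To these came Gars, Kars and the most and least abundant member of each compartment. SE and adjusted p were left out for Sars, Tars, Tars2, Rars and Lars. From the other lists, up to 4 genes with the widest change on each side were named, and some further ones after their values were seen. Alternatives were DESeq2 1.42.0 (test and size factors), no filter, no TMM, a replicate block, covariates, library subsets, a stricter threshold and leaving out each library. A related gene and a promoter site are not reported here.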

Additional observations from a re-analysis of the deposited data

Results flagged for a closer look

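Among 78 values tested (36 members and 3 sums in 2 groups), 2 held a library far from the 7 others of its group, where chance gives about 1 in 20. Sars, the cytosolic serine enzyme, was at 329 CPM in Control gRNA library 1, while the other Control libraries ran from 287 to 307 CPM. Tars, the cytosolic threonine enzyme, was at 185 CPM in Tardbp gRNA library 1, while the other Tardbp libraries ran from 160.1 to 170.3 CPM. Neither library brought the groups into overlap.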

How the results depend on the processing

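Of 971 values of single members under 27 alternatives, 908 kept their direction and side of the threshold, 53 lost the call, 4 gained it and 6 changed sign; 32 members kept their direction in every alternative and 18 their call. Members called fell from 33 to 20 with log2 RNA concentration as a covariate and to 21 in library numbers 1 to 3 alone, and mitochondrial members called from 13 to 5 in each. Calls over all genes fell from 7783 to 2697 and 1696 in those fits, the last with fewer libraries. RNA concentration did not overlap between groups and cannot be told apart from them. Changes of sign were Rars2 log2 fold change 0.0021 and Yars2 log2 fold change 0.22 with RNA concentration, Lars2 log2 fold change -0.093 in numbers 1 to 3 alone, and Fars2 log2 fold change 0.055 in numbers 4 to 8 alone and 0.048 without TMM. Leaving out single libraries moved Fars2 between -0.065 and 0.0032. The cause was not tested. The summed mitochondrial level went from 105.5% to 77.9% of Control when Lars2 was left out, an alternative chosen after seeing the data. With a replicate block, 20 cytosolic and 12 mitochondrial members, 28 member transcripts and 0 shares were called, and 7645 genes in all. Same-numbered libraries correlated at -0.00418 to 0.118, over 0.1 only for number 1, and correlated best with their own number only for numbers 1, 2 and 3, so the numbers were not taken as pairs. Cytosolic calls stayed at 20 in all 16 fits without a library. Depth was high for all members, whereas that of Psi is unknown.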

Other observations

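The start of Wars2, the mitochondrial tryptophan enzyme, had the widest Psi differences among the members, between its first start node and the next. The annotated forms described here both start inside the first of these nodes, so their counts do not show that difference. A form annotated as subject to nonsense-mediated decay, had 176, 116 and 117 counts in Tardbp libraries 1, 4 and 7 and between 0 and 9 in the other 13 libraries. The main coding form of Wars2 was lower in Tardbp gRNA, at -0.53 on the log2 scale (SE 0.123, edgeR adjusted p 0.00689). The other form did not pass the filter on low counts, so no test was made of it.

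The deposited sample sheet gives sex as M or F, without saying whether donors or recipients are meant. Control gRNA held 3 M and 5 F libraries, and Tardbp gRNA 5 M and 3 F. With that letter as a covariate, 31 members were called lower, beside 3732 of 16650 genes tested. The calls lost were Cars2 and Nars2. The difference in change between the sexes had an unadjusted p under 0.05 for 3 of 36 members by edgeR and an adjusted p under 0.05 for 0.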
